A study of Homo sapiens with 16 samples.

Results

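The HOX cluster genes were taken as every gene symbol made of HOX, the letter A, B, C or D and a number, without antisense names. This gave 39 of 23340 symbols, with 11 in the HOXA cluster on chromosome 7, 10 in HOXB on chromosome 17, 9 in HOXC on chromosome 12 and 9 in HOXD on chromosome 2. Expression was measured by sequencing the polyadenylated RNA of CCLP1 cells, a long-established human line from a bile duct cancer inside the liver (intrahepatic cholangiocarcinoma). Per the labels all 16 libraries came from this line, and they formed 8 groups of 2. In experiment 1, clones carried a short hairpin RNA (shRNA, which directs the breakdown of a chosen transcript) against HHEX, the gene of the homeodomain factor PRH, or a non-targeting control shRNA, and each library was a separate clone. In experiment 2, CCLP1 cells with no shRNA named in the labels received an adenovirus carrying myc-tagged PRH or an empty adenovirus, in separate infections. Experiment 3 combined a NOTCH3 or a control shRNA with the PRH or the empty adenovirus, again in separate infections. The labels do not say whether an shRNA line of experiment 3 came from 1 clone or from many cells, and the time after infection is not given in the sources used here.

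HOX genes encode homeodomain transcription factors that give cells their position along the body axis. Within a cluster, genes with low numbers are used in anterior tissues and genes with high numbers in posterior ones, and adult cells in culture largely keep the set of HOX genes that was active where they arose. The set of active HOX genes, or HOX code, can therefore serve as a mark of the origin of a cell. Whether it does so in this cancer line was not tested. HHEX is a homeobox gene outside the 4 clusters.

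Libraries held 20795552 to 69899040 reads in genes, and values are normalised counts, which the authors scaled within each experiment, so that levels are tested only within an experiment. HHEX read 314 and 326 in the PRH shRNA clones against 580 and 554 in the control clones, and its difference did not pass the test (log2 fold change -0.82, SE 0.49, adjusted p = 0.9999 by limma). The PRH adenovirus raised HHEX to between 46576 and 330421 in every library that received it, from 187 to 715 in those with the empty virus. In experiment 3 HHEX was lower in the libraries labelled NOTCH3 shRNA with either virus. With the empty virus it read 209 and 187 against 613 and 715 in the control shRNA libraries (log2 fold change -1.74, SE 0.22, adjusted p = 1.26e-04 by limma). HHEX with the PRH virus read 71910.5 and 46576 in the libraries labelled NOTCH3 shRNA and 228980 and 330421 in the control shRNA libraries (log2 fold change -2.25, SE 0.22, adjusted p = 3.61e-05 by limma). The rise with the PRH virus was 8.19 and 8.70 on the log2 scale, and the interaction did not pass (-0.51, SE 0.30, adjusted p = 0.366 by limma). NOTCH3 was not lower in the libraries labelled NOTCH3 shRNA when the empty virus was present, at 655 and 1018 against 711 and 838. With the PRH virus it was 761 and 1086 against 2295 and 2488 in the control shRNA libraries (log2 fold change -1.39, SE 0.24, adjusted p = 0.00118 by limma). The group is therefore called the libraries labelled NOTCH3 shRNA throughout. Defining bile duct and epithelial genes differed widely among libraries labelled as this 1 line. KRT19, a bile duct keratin, read 51370 to 63763 in the libraries labelled NOTCH3 shRNA, 437 to 16365 in experiment 1, and 0.852 to 55.4 in the other libraries of experiments 2 and 3. What cells the libraries labelled NOTCH3 shRNA hold is therefore uncertain, and whether they share their origin with the controls was not tested. In mixed RNA of this kind, fewer cells using a gene and less RNA per cell cannot be told apart.

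A HOX gene is called on in a library here at 10 or more normalised counts. By that level 22 of the 39 genes were on in all 16 libraries, 6 were on in none and 11 were on in some. The constant set was 8 HOXA genes, 9 HOXB genes and 5 HOXC genes. HOXB2 to HOXB9 and HOXB13 were on in every library, and HOXB1, used in the hindbrain, reached at most 6.88. HOXC12 had no read in any library. No HOXD gene was on throughout, and HOXD1, HOXD3, HOXD4 and HOXD12 were on nowhere, with a highest value of 8.60 among them.

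**Figure D1:**
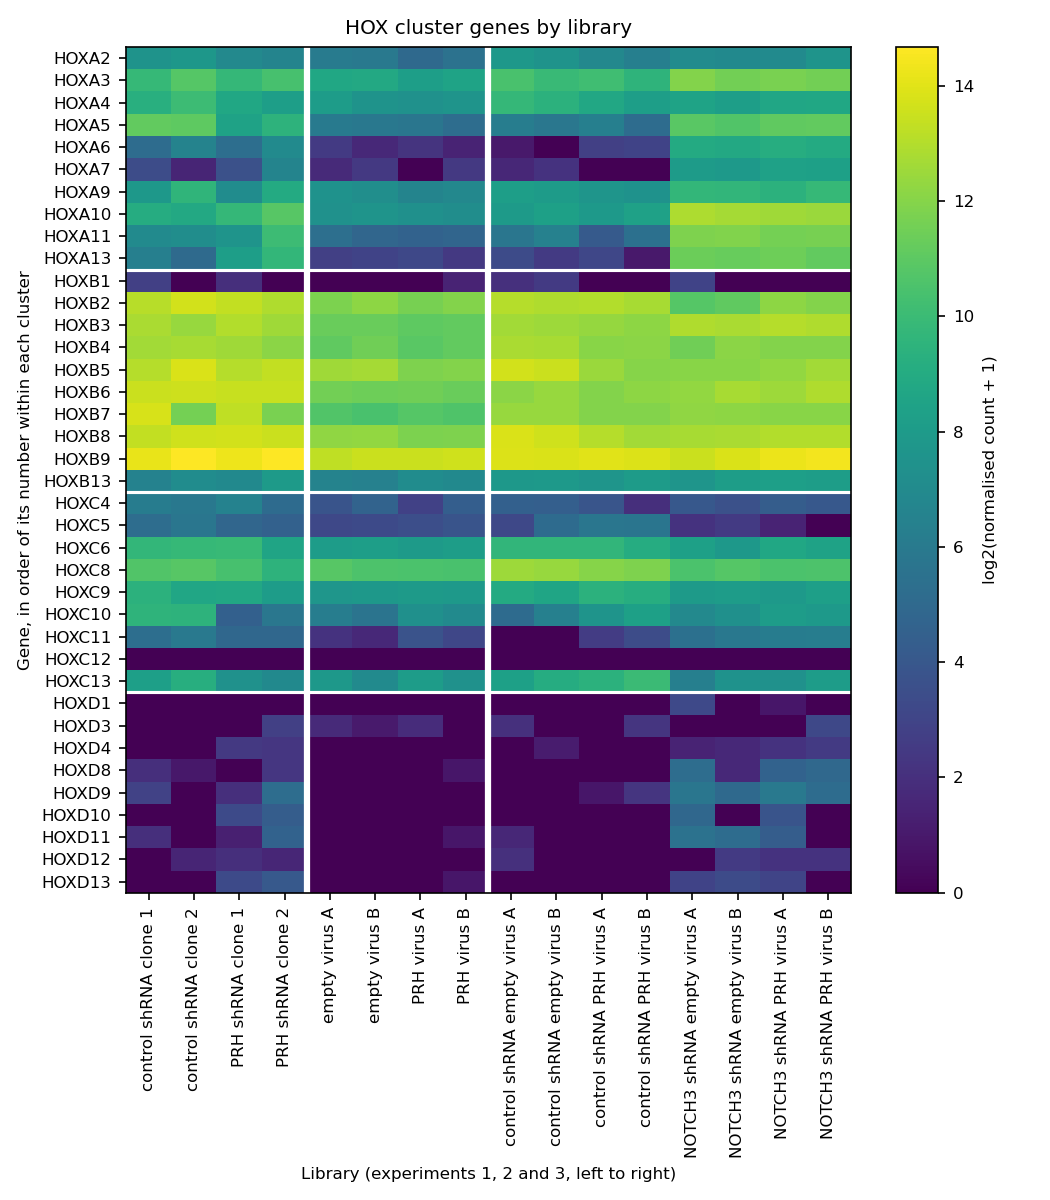
Colour gives log2(normalised count + 1) for the HOX genes shown (rows, by cluster and number) in each of the 16 libraries (columns, experiments 1 to 3 from left to right). HOXB2 to HOXB9 are bright in every column, while HOXA5 to HOXA13 are bright in the 4 libraries labelled NOTCH3 shRNA and partly so in experiment 1.

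The HOXB cluster held most of the HOX reads. In RPM, a gene's reads scaled to a common total of reads in genes, the 10 HOXB genes summed to between 754 in a NOTCH3 shRNA empty virus library and 2051 in control shRNA clone 2, while the 9 HOXD genes summed to at most 3.00. Adjusted for exon length (GENCODE 29 exons on GRCh38, while the counting was on hg19), the level of HOXB9 was the highest of all members in 7 of the 8 groups, at 88.0 to 206 RPM per kilobase. The exception was the control shRNA group with the empty virus, where HOXB8 stood at 126, HOXB5 at 102 and HOXB9 at 98.6 on that scale. In the empty virus libraries labelled NOTCH3 shRNA, HOXA10 stood at 37.6 and HOXA11 at 27.6 RPM per kilobase, whereas in the control shRNA libraries with the same virus they stood at 1.54 and 0.513. High HOXB levels were thus shared by all groups, whereas the place of HOXA10 and HOXA11 in the order differed between groups.

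At the level of 10 normalised counts the number of genes on varied. The lowest number was 23, in 4 libraries, and the highest 32, in PRH shRNA clone 2. In experiment 1, PRH shRNA clone 1 had 28 genes on and each control clone 27. The order within experiment 1 depends on the level, since at 50 normalised counts or more the PRH shRNA clones had 23 and 25 genes on against 24 and 26 in the control clones, and the same numbers at 1 RPM. The 4 libraries of experiment 2 had 23 or 24, as did the 4 control shRNA libraries of experiment 3, while those labelled NOTCH3 shRNA had 29 to 31. All 11 HOXA genes were on in the PRH shRNA clones and in the libraries labelled NOTCH3 shRNA, 10 in the control clones of experiment 1, and 8 in every other library. HOXA6, HOXA7 and HOXA13 made that difference. HOXD genes were on only in PRH shRNA clone 2 (4 genes) and in the libraries labelled NOTCH3 shRNA (2 to 4 genes), and their values there ran from 13.1 to 60.1.

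The comparison of NOTCH3 and control shRNA with the empty virus showed the widest shift. Of 39 members, 32 were expressed enough to be tested (10 normalised counts or more in 2 or more libraries of their experiment), and 24 of these were called at an adjusted p under 0.05, with 15 higher and 9 lower. Among all 15836 genes tested 51.9% were called, 28.9% higher and 23.1% lower, so that calls were common in this comparison at large. The median log2 fold change of the tested members was 0.26, beside 0.04 over all genes. HOXA6, HOXA7, HOXA13, HOXC11, HOXD8, HOXD9, HOXD10 and HOXD11 were under 10 normalised counts in every control shRNA library. They were tested only through the libraries labelled NOTCH3 shRNA, so that a lower call was hardly possible for them. All but HOXD10 are among the higher calls. The same filter was used for all genes. By cluster, 9 HOXA genes were higher and 1 lower, 1 HOXB gene was higher and 4 lower, 2 HOXC genes were higher and 4 lower, and 3 HOXD genes were higher.

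HOXA5, HOXA6, HOXA7, HOXA10, HOXA11 and HOXA13 each had a log2 fold change above 4. HOXA10, a gene of posterior trunk and reproductive tract, read 7471 and 6561 in the libraries labelled NOTCH3 shRNA and 258 and 319 in the control shRNA libraries. The groups lay far apart, and the log2 fold change was 4.60 (SE 0.19, adjusted p = 2.09e-07 by limma). HOXA11, known from the limb, kidney and uterus, read 3724 and 3746 against 52.3 and 87.1 (log2 fold change 5.77, SE 0.40, adjusted p = 3.41e-06 by limma). HOXA13, which patterns the hindgut, genital tubercle and digits, read 2655 and 2415 against 9.22 and 4.53 (log2 fold change 8.40, SE 0.65, adjusted p = 6.36e-06 by limma). In the control libraries HOXA13 was therefore under the level called on, while both libraries of the other group were far above it.

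HOXA5, which acts in the lung and foregut, read 1920 and 1653 against 74.8 and 55.4 (log2 fold change 4.77, SE 0.37, adjusted p = 6.36e-06 by limma). HOXA6 read 500 and 456 against 1.02 and 0, and HOXA7 266 and 236 against 2.05 and 3.39. Both passed the test (adjusted p = 2.98e-06 and 3.5e-05 by limma), but with so few reads in the controls the fitted size of their change depends on the pseudocount of 1. The groups did not overlap for any of the 6 genes just named.

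The remaining HOXA genes moved less and not all one way. HOXA9, a gene of blood progenitors and posterior trunk, read 830 and 814 against 298 and 261 (log2 fold change 1.55, SE 0.23, adjusted p = 3.47e-04 by limma). HOXA3 read 3994 and 3007 against 1426 and 975 (log2 fold change 1.55, SE 0.24). HOXA4 went the other way, at 366 and 299 against 872 and 687 (log2 fold change -1.22, SE 0.26, adjusted p = 0.00309 by limma). HOXA2 was not called, at 132 and 124 against 226 and 188. Both neighbours of HOXA4 on the chromosome, HOXA3 and HOXA5, were thus higher while HOXA4 was lower.

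**Figure D2:**
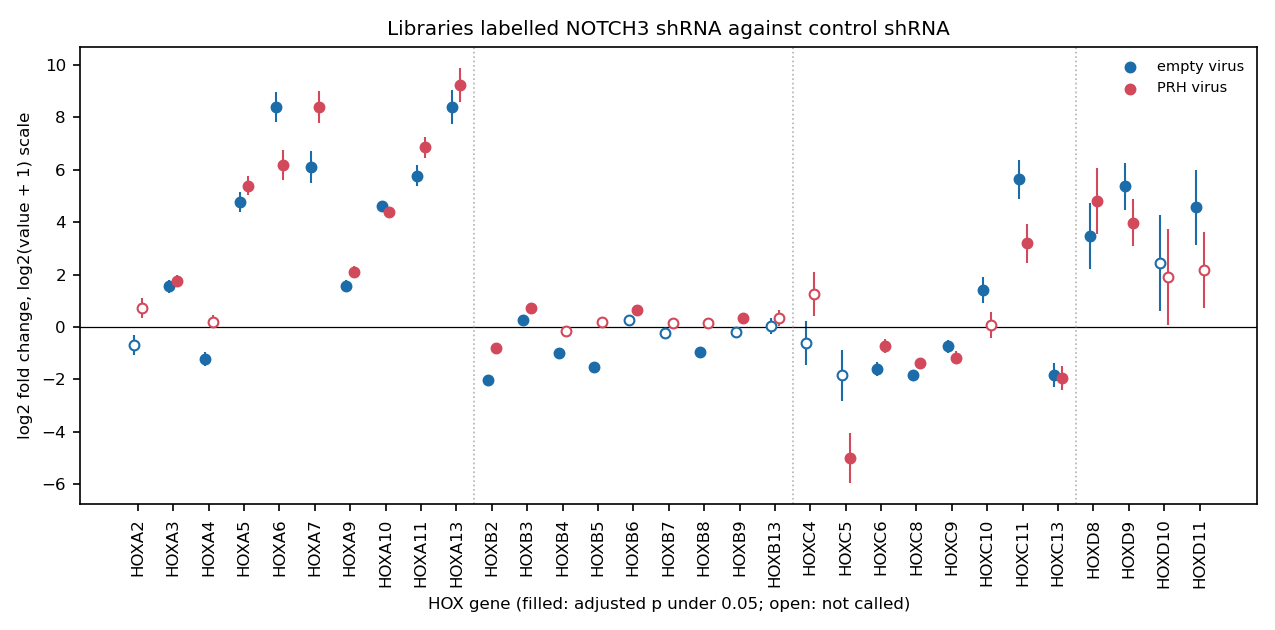
Points give the log2 fold change of the tested HOX genes shown, on the log2(normalised count + 1) scale, between the libraries labelled NOTCH3 shRNA and the control shRNA libraries with the empty virus (blue) and the PRH virus (red), with bars of 1 standard error. HOXA5, HOXA6, HOXA7, HOXA10, HOXA11 and HOXA13 lie above 4 with both viruses, while most HOXB and HOXC genes lie within 2 of 0.

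In the HOXB cluster the called changes were mostly losses. HOXB2, a hindbrain gene, read 1826 and 2186 in the libraries labelled NOTCH3 shRNA against 8500 and 7824 (log2 fold change -2.03, SE 0.13, adjusted p = 2.27e-06 by limma). HOXB5 read 4221 and 4295 against 13006 and 11607 (-1.53, SE 0.16), HOXB8 6978 and 7110 against 14721 and 12555 (-0.95, SE 0.14) and HOXB4 2834 and 4396 against 7073 and 7024 (-0.997, SE 0.17). None of these 4 genes had overlapping groups. HOXB3 was slightly higher, at 7645 and 7340 against 6346 and 6020 (log2 fold change 0.28, SE 0.09, adjusted p = 0.0329 by limma). The difference did not pass the test for HOXB6, HOXB7, HOXB9 and HOXB13, and all 9 HOXB genes on elsewhere were on in these libraries too.

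HOXC genes were called in both directions. HOXC8, a thoracic gene, read 1449 and 1756 against 5807 and 5530 (log2 fold change -1.83, SE 0.12, adjusted p = 2.95e-06 by limma), and HOXC6 318 and 222 against 812 and 814 (-1.61, SE 0.27). HOXC13, known from hair and nails, read 78.3 and 181 against 327 and 552 (-1.83, SE 0.45, adjusted p = 0.00769). HOXC9 read 256 and 281 against 509 and 390 (-0.73, SE 0.25, adjusted p = 0.034). HOXC10, by contrast, was higher, at 121 and 166 against 33.8 and 82.6 (log2 fold change 1.41, SE 0.48, adjusted p = 0.0345 by limma). HOXC11 read 41.3 and 57.0 where both control libraries had no read, which makes it at least 15.2-fold higher if each control is set to 3 counts, the floor used here for a library without reads. The 3 called HOXD genes were HOXD9 at 52.5 and 30.8 against 0 and 0 (at least 12.9-fold higher), HOXD11 at 45.6 and 35.3 against 2.05 and 0, and HOXD8 at 37.0 and 2.28 against 0 and 0.

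Some of these calls were lost when a single library was left out, which also lowered the number of calls over all genes. With 1 of the 8 libraries left out, the count of members called ranged from 18 to 23, and 18 of the 24, among them the 6 HOXA genes with the largest changes, were called in all 8 such fits. The call of HOXC13 was lost without NOTCH3 shRNA empty virus library A (adjusted p = 0.0582) or control shRNA empty virus library B (0.0687). HOXC9 was lost without either NOTCH3 shRNA empty virus library or without control shRNA empty virus library A (adjusted p up to 0.19), HOXC10 in 5 fits (up to 0.213), HOXB3 in 4 (up to 0.167), HOXD11 in 4 (up to 0.144) and HOXD8 in 7 (up to 0.235, without NOTCH3 shRNA empty virus library A), all by limma.

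The same shRNA comparison with the PRH virus used 4 other libraries, from infections of cells under the same shRNA labels and not from shRNA lines known to be separate. There 21 of the 32 tested members were called, 15 higher and 6 lower, beside 47.2% of all genes tested (26.1% higher, 21.1% lower). HOXA5, HOXA6, HOXA7, HOXA10, HOXA11 and HOXA13 were again among the higher. Here too HOXA6, HOXA7, HOXA13, HOXC11 and the tested HOXD genes were tested only through the libraries labelled NOTCH3 shRNA. HOXA10 read 6174 and 5748 in the libraries labelled NOTCH3 shRNA against 240 and 343 (log2 fold change 4.37, SE 0.19, adjusted p = 4.02e-07 by limma), and HOXA13 2740 and 2275 against 7.66 and 0.966 (9.24, SE 0.65, adjusted p = 5.86e-06). HOXA7 read 339 and 328 where both control shRNA libraries had no read, and was at least 122-fold higher with that floor. The difference of the HOXA genes was thus present with either virus.

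Outside HOXA the picture with the PRH virus was milder in HOXB. HOXB2 was lower, at 4612 and 3959 against 8217 and 6870 (log2 fold change -0.81, SE 0.13, adjusted p = 8.25e-04 by limma), while the differences of HOXB4, HOXB5 and HOXB8 did not pass the test. HOXB3 (0.72, SE 0.09), HOXB6 (0.64, SE 0.18) and HOXB9 (0.35, SE 0.12) were called higher on the log2 scale. HOXC8 was lower again, at 1472 and 1549 against 4197 and 3663 (-1.38, SE 0.12), as were HOXC5, HOXC6, HOXC9 and HOXC13. HOXC5 read 1.74 and 0 against 53.6 and 50.2. Calls over all genes fell in most fits with a library left out. Of the 21 calls, 16 held in all 8 fits with a library left out. HOXC13 lost its call without NOTCH3 shRNA PRH virus library A (adjusted p = 0.0607) or control shRNA PRH virus library B (0.057), and HOXB6 without NOTCH3 shRNA PRH virus library B (0.158) or control shRNA PRH virus library A (0.112). HOXD8 lost it without NOTCH3 shRNA PRH virus library B or either control shRNA PRH virus library (adjusted p 0.0521 to 0.055). HOXC6 lost it in 5 fits (up to 0.281, without control shRNA PRH virus library A) and HOXB9 in 6 (up to 0.189, without NOTCH3 shRNA PRH virus library B), all by limma.

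Epithelial genes moved with the HOXA genes in this experiment. All 12 epithelial markers were called higher under the NOTCH3 label with the empty virus, beside 28.9% of all genes tested (23.1% lower). At 10 or more normalised counts were 6 to 8 of the 12 in the control shRNA libraries. Their summed level was 475662 and 395470 against 176 and 786, and EPCAM read 34253 and 28044 against 14.4 and 28.3. Of 14 tested cholangiocyte markers 12 were higher and 2 lower (summed level 496904 and 442307 against 40690 and 39420). Neither control library with the empty virus had a read of KRT7 or of CFTR, defining bile duct genes. Their part in the HOX differences was not tested. Fibroblast markers were split at 4 higher and 4 lower of 10 tested, with vimentin (VIM) at 135644 and 172113 against 557347 and 532037. Called markers of other cell types were 4 of 5 mesothelial (all higher), 4 of 5 endothelial (all higher), 2 higher and 3 lower of 7 hepatocyte and 4 higher and 2 lower of 8 leukocyte markers.

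Several genes in or beside the HOXA cluster were higher together with its high-numbered members. Of 8 noncoding RNAs of the HOX clusters that could be tested, 7 were called higher in that comparison and none was lower. Among all genes tested 28.9% were higher and 23.1% lower. At 10 or more normalised counts were 2 or 3 of the 8 in each control shRNA library and 6 or 7 under the NOTCH3 label. HOTTIP, HOXA-AS3 and the nearby gene EVX1 were under 10 in every control shRNA library. They were tested only through the libraries labelled NOTCH3 shRNA, so that a lower call was hardly possible for them. HOTTIP, transcribed beyond HOXA13 and known to hold an active chromatin state over the end of the cluster, read 1630 and 2088 against 0 and 3.39. HOXA-AS3 read 459 and 401 where both controls had no read. EVX1, the homeobox gene on the far side of HOTTIP, read 107 and 99.2 against no read, and SNX10, a membrane sorting gene beyond the other end of the cluster, 993 and 1269 against 1.02 and 2.26. HIBADH, further out beyond EVX1, rose less, from 876 ± 94.0 to 2301 ± 144 (mean ± SD, n = 2). Over all 21 tested genes that flank the 4 clusters, 6 were higher and 5 lower, with a median log2 fold change of -0.04. The part called was near that of all genes.

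Most lists of regulators and partners of HOX genes held calls in both directions. Among all genes tested in this comparison 51.9% were called, 28.9% higher and 23.1% lower. The called part of the Polycomb, Trithorax and retinoic acid lists was near that of all genes. CDX2 and PDX1, homeobox genes of intestine and of pancreas and duodenum, were the only 2 tested of 6 ParaHox and CDX genes. CDX2 read 9690 and 9789 against 19.5 and 75.8 (log2 fold change 7.94, SE 0.47, adjusted p = 1.47e-06 by limma), and PDX1 775 and 621 against no read in either control. Among 10 tested TALE cofactors, which bind DNA together with HOX proteins, 3 were higher and 4 lower. MEIS2 fell to 2443 and 2451 from 6820 and 6205, and PBX3 to 1436 and 1797 from 3503 and 3515. Polycomb genes, which keep HOX genes silent, were 6 higher and 8 lower of 29 tested, and Trithorax group and demethylase genes, which keep them active, 6 higher and 3 lower of 18. The lowest adjusted p in the latter list was that of MLLT3, part of a transcription elongation complex, at 5390 and 5274 against 174 and 131. Retinoic acid, a known inducer of HOX genes, was represented by 14 tested genes, 4 higher and 4 lower. Its degrading enzyme gene CYP26B1 read 2134 and 1446 against 35.9 and 9.05 and the retinaldehyde reductase gene DHRS3 1422 and 1459 against 84.0 and 61.1, while ALDH1A1 and RDH10, which make it, were lower (log2 fold change -1.76 and -2.13).

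Promoters are shown for 3 genes of the HOXA block and for HOXA4, since within 1 cluster they moved in opposite directions with the empty virus. RefSeq promoter windows of GRCh38.p14, from 250 bases before to 50 after a start site, matched 20 of the 39 members. CG dinucleotides, the sites of DNA methylation, are in capitals.
HOXA13, chr7:27200042-27200341, minus strand: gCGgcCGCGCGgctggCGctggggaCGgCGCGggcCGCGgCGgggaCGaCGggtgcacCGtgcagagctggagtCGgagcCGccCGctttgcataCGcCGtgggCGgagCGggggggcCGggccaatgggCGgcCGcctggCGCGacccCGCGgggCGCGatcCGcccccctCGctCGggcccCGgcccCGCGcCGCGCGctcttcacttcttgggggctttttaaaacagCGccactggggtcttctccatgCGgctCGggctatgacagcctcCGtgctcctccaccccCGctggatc
HOXA11, chr7:27185183-27185482, minus strand: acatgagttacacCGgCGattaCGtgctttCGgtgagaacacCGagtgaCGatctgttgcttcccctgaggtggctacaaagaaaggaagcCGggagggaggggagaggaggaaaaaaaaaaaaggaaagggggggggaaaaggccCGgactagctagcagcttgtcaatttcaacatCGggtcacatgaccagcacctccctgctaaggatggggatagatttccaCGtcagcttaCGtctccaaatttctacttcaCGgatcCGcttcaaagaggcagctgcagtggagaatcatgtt
HOXA10, chr7:27179812-27180111, minus strand: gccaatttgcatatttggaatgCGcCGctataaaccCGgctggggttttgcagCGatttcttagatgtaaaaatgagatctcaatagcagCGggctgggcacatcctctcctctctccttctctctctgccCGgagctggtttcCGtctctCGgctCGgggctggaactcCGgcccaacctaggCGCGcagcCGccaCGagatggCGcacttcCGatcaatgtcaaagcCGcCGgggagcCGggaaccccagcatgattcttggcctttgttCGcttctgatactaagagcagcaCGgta
HOXA4, chr7:27130708-27131007, minus strand: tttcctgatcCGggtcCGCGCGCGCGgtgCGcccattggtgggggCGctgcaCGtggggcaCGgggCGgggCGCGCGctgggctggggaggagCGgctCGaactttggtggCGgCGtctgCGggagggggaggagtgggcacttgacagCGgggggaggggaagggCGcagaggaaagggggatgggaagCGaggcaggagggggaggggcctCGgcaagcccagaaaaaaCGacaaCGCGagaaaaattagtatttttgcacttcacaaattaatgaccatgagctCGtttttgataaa
The HOXA13 window holds 44 CG dinucleotides, a number reached by 4.09% of all 27305 windows, the HOXA4 window 27, the HOXA10 window 21 and the HOXA11 window 13, beside a median of 14. The 3 windows of genes that were higher thus held both more and fewer CG dinucleotides than that of HOXA4. The letters TTTAT or their reverse complement ATAAA, a core of sites for CDX and high-numbered HOX proteins, occur in the windows of 10 of the 20 HOX genes (9 of 19 distinct windows, since HOXC4 and HOXC5 share 1) and in 35.8% of all windows, and in neither the HOXA13 nor the HOXA11 window. TGGGAA or TTCCCA, the core bound by the Notch partner RBPJ, occurs in 1 of the 20, that of HOXA4, and in 24.3% of all windows.

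Experiment 1 was read clone by clone. The test called none of the 28 tested members between the PRH shRNA and control shRNA clones, and none of all 14511 genes (0%), by limma. At an unadjusted p under 0.05, 5 members and 959 of all genes stood out. The groups did not overlap for 15 of the 28 members (53.6%), with both PRH shRNA clones above both controls for 4 and below them for 11. Among all genes tested 24.0% did not overlap, 12.3% above and 11.7% below. The median log2 fold change of the tested members was -0.26, beside -0.07 over all genes. Rescaling to equal totals moves the median of all genes to 0.03.

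HOXC10, a gene of the lumbar region and hindlimb, differed the most. It read 21.7 in PRH shRNA clone 1 and 54.5 in clone 2 against 733 and 726 in the control clones (log2 fold change -4.36, SE 0.69, adjusted p = 0.321 by limma). The gap between the groups was much wider than that between clones of a group. The adjusted p by limma was 0.00191 when PRH shRNA clone 1 was left out, 2.43e-05 for clone 2 of that group and 0.0381 without control shRNA clone 1, while it was 0.116 without control shRNA clone 2. Between 51 and 607 of all genes were called in these 4 fits. HOXA5 read 346 and 712 against 2230 and 2130 (log2 fold change -2.13, SE 0.53, adjusted p = 0.322). HOXC13 read 168 and 125 against 315 and 592, HOXA4 420 and 304 against 604 and 1057, and HOXC8 1344 and 731 against 1628 and 1846. Both PRH shRNA clones lay below both controls for these genes, as they did for HOXA2, HOXB4, HOXB6, HOXC5 and HOXC11. HOXA2 read 118.6 and 98.02 against 182.9 and 218.5, and HOXB4 6057 and 4412 against 6340 and 6815. HOXC5 read 27.49 and 22.77 against 37.31 and 53.44, and HOXC11 28.93 and 28.71 against 38.77 and 60.12. For HOXB6 that gap was within 1 SD of the control clones, at 11325 and 11149 against 11399.5 and 12305.

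HOXA7, HOXA10, HOXA11 and HOXA13 were in the opposite order, with both PRH shRNA clones above both controls, whereas the groups overlapped for HOXA9, which lies among them. HOXA13 read 302 in PRH shRNA clone 1 and 838 in clone 2, and 78.3 and 32.4 in the controls (log2 fold change 3.29, SE 0.81, adjusted p = 0.322 by limma). Its log2 fold change was 4.026 without PRH shRNA clone 1 and 3.915 without control shRNA clone 1, fits that leave 1 library in a group. HOXA11 read 190 and 1071 against 129 and 144, with a log2 fold change of 1.716 that became 2.962 without PRH shRNA clone 1. HOXA10 read 884 and 1898 against 552 and 469. HOXA7, a trunk gene, read 11.6 and 99.0 against 9.51 and 1.91. For each of these 4 genes the gap in normalised counts between the 2 PRH shRNA clones was wider than that between PRH shRNA clone 1 and the nearer control.

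**Figure D3:**
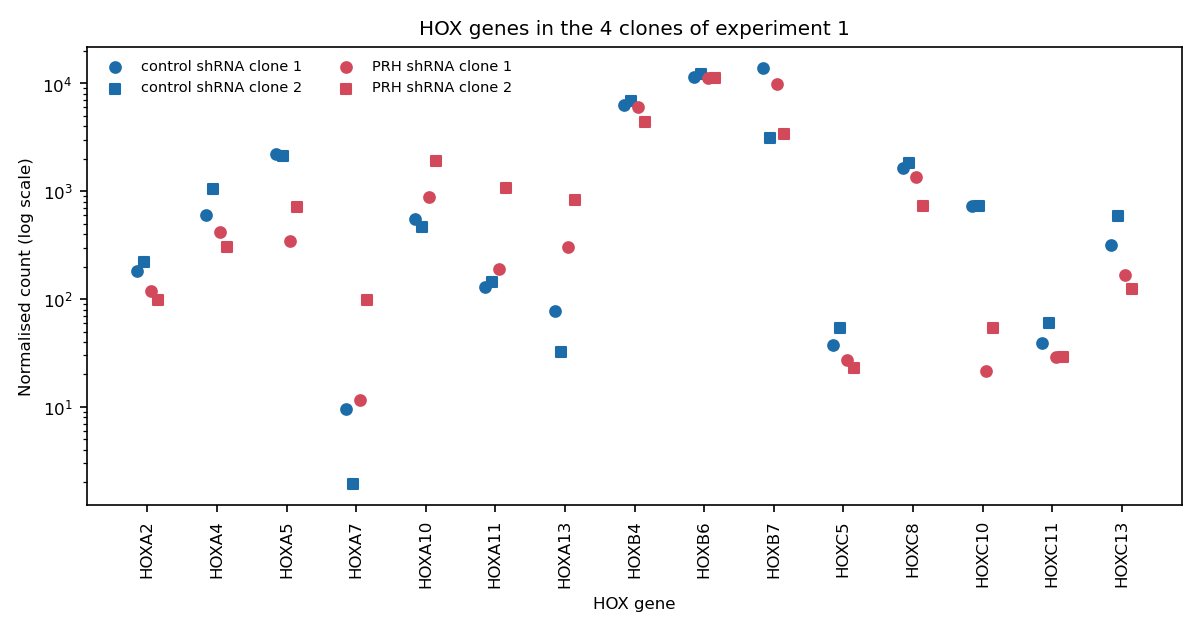
Normalised counts on a log axis for HOX genes of experiment 1, with 1 point for each of the 4 clones (blue, control shRNA; red, PRH shRNA; circles, clone 1; squares, clone 2). HOXC10 and HOXA5 are lower in both PRH shRNA clones, HOXA13 is higher in both, and HOXB7 follows the clone number.

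HOXB7 followed the clone number and not the shRNA. It read 9949 in PRH shRNA clone 1 and 3402 in clone 2, and 13957 and 3136 in the controls, so that the clones numbered 1 were high and those numbered 2 low in both groups. HOXA9 showed the reverse order, at 142 and 497 in the PRH shRNA clones and 223 and 790 in the controls. Across members (n = 32 genes), Pearson's r of log2 values was 0.942 between the PRH shRNA clones and 0.973 between the control clones. Between groups it ran from 0.849, for PRH shRNA clone 2 with control clone 2, to 0.933, a description over genes of the same clusters and libraries.

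Markers of other kinds moved in experiment 1 too. The summed level of the 12 epithelial markers was 25084 in PRH shRNA clone 1, 134999 in clone 2, and 4679 and 3820 in the control clones, and that of the 15 cholangiocyte markers was 38904 and 158448 against 18217 and 32936. CDX2 read 454 and 3397 against 138 and 316, HOTTIP 161 and 663 against 24.9 and 20.04, and RARB, a retinoic acid receptor gene, 7.23 and 19.8 against 455 and 569. None of these genes was called by limma, and clone 2 was the higher of the PRH shRNA clones in each. The 7 mesothelial markers summed to 31.8 and 260 in the PRH shRNA clones against 11364 and 20952, but the sums did not speak for the whole list. At 10 or more normalised counts were 2 and 5 of the 7 in the PRH shRNA clones, and 1 and 2 in the controls. The median log2 fold change of the 3 tested was 0.08. The part of these genes in the HOX differences was not tested.

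The 6 HOXA genes with the largest shift in experiment 3 were set side by side across all libraries in RPM, as a percentage of their mean in the 2 empty virus libraries labelled NOTCH3 shRNA. The experiments were normalised separately, so these percentages carry no test. Their median over the 6 genes was 43.2% in PRH shRNA clone 2 and 13.2% in clone 1. In the control clones of experiment 1 it was 6.90% and 6.78%. In the 4 libraries of experiment 2 and the 4 control shRNA libraries of experiment 3 it ran from 0.902% to 2.98%. HOXA5 broke from the rest, at 155% and 153% in the control clones of experiment 1, which lay above the libraries labelled NOTCH3 shRNA for this gene, and 2.10% to 8.75% in the virus experiments without NOTCH3 shRNA. HOXC10 was at 15.4 and 15.8 RPM in the control clones of experiment 1, 0.566 and 1.40 RPM in the control shRNA libraries of experiment 3 with the empty virus, and 3.03 and 1.96 RPM in the empty virus libraries of experiment 2, which carried no shRNA named in the labels. Clone, virus and experiment cannot be told apart in these values.

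**Figure D4:**
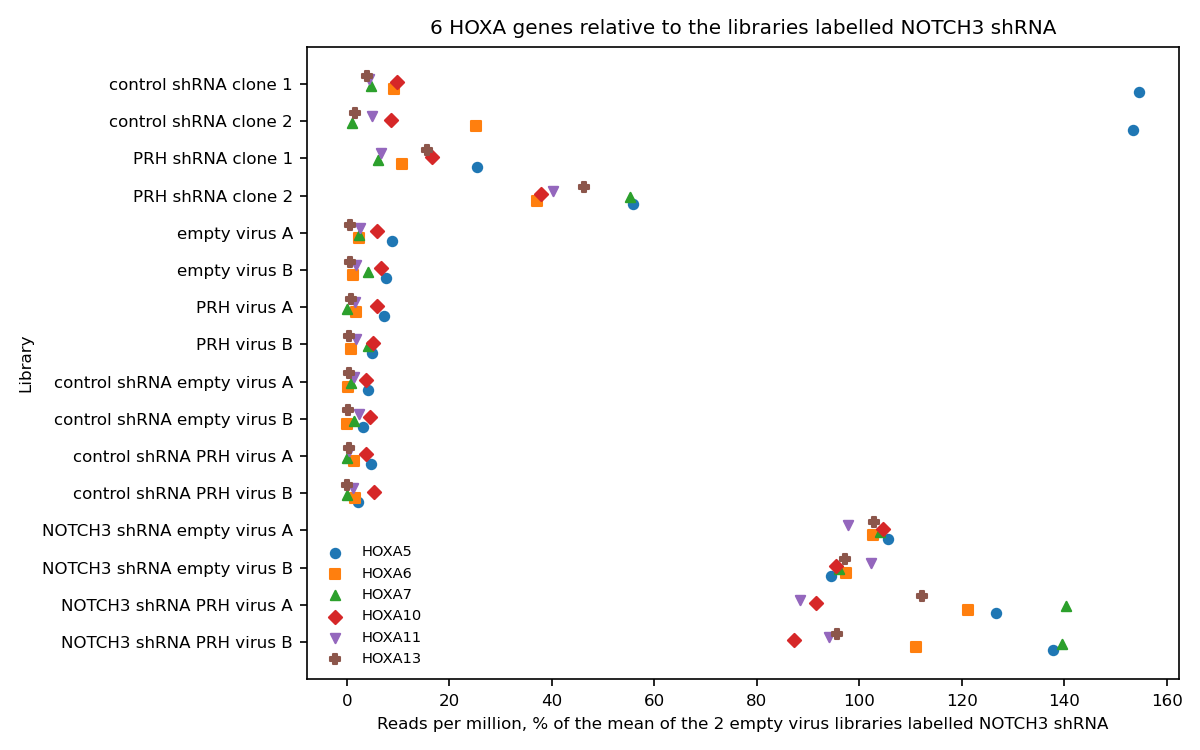
RPM of 6 HOXA genes in each library, as a percentage of the mean of the 2 empty virus libraries labelled NOTCH3 shRNA. PRH shRNA clone 2 lies between 37.1% and 55.8% for all 6 genes, the virus libraries without NOTCH3 shRNA lie at 8.75% or less, and HOXA5 stands at 155% and 153% in the control clones.

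With the PRH adenovirus in experiment 2, the share of HOX genes called was near that of all genes. In that comparison 3 of the 24 tested members were called (12.5%), 1 higher and 2 lower, beside 15.6% of all 13263 genes tested (9.90% higher, 5.73% lower). HOXB5, a gene of the lung, gut and nerve cell precursors, read 3662 and 3995 with the PRH virus against 6088 and 6688 with the empty virus (log2 fold change -0.74, SE 0.10, adjusted p = 0.00711 by limma), and kept its call in all 4 fits with a library left out. HOXB8 read 3454 and 3604 against 4773 and 5074 (-0.48, SE 0.10, adjusted p = 0.0202). HOXC10 was higher, at 167 and 129 against 73.7 and 48.7 (1.28, SE 0.29, adjusted p = 0.0304). The calls of HOXB8 and HOXC10 were lost without PRH virus library A (adjusted p = 0.12 and 0.102), that of HOXB8 also without PRH virus library B (0.053) and that of HOXC10 without empty virus library B (0.0723), so that 1 to 3 members were called when a library was left out, beside 1278 to 2140 of all genes. Without the intensity trend no member passed, and the calls over all genes went from 2073 to 758. HOXA13 was low with either virus, at 7.98 and 4.34 against 5.85 and 6.65.

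In the control shRNA cells of experiment 3 the PRH virus gave 11 calls among 32 tested members (3 higher, 8 lower), beside 27.0% of all genes (15.2% higher, 11.8% lower). HOXB5 read 5773 and 4200 with the PRH virus against 13006 and 11607 (log2 fold change -1.32, SE 0.16, adjusted p = 3.92e-04 by limma). HOXB8 read 8601 and 6346 against 14721 and 12555 (-0.88, SE 0.14, adjusted p = 0.00175) and HOXB7 3922 and 3912 against 5400 and 5533 (-0.48, SE 0.08, adjusted p = 0.00302). The groups were well separated for these 3 genes, and each kept its call in all 8 fits with a library left out. HOXB4 (-0.67), HOXB3 (-0.33), HOXC8 (-0.53), HOXA4 (-1.09) and HOXA11 (-1.29) were also lower on the log2 scale. HOXC10 was higher, at 191 and 326 against 33.8 and 82.6 (2.21, SE 0.48, adjusted p = 0.00919). HOXC11 reached 5.11 and 9.66 against no read in either control (at least 2.28-fold higher) and HOXA6 5.96 and 6.76 against 1.02 and 0, both under the level called on. Leaving out control shRNA PRH virus library B brought the calls to 4 and leaving out either control shRNA empty virus library to 5. Calls over all genes went from 4282 to 2492 in the first of these fits and to 2291 and 2656 without empty virus library A and B. HOXB3, HOXB4, HOXC8 and HOXC11 lost their calls in each of these 3 fits (adjusted p 0.0542 to 0.172), and HOXC10, HOXA4 and HOXA6 in 2 of them (0.0526 to 0.102). HOXA11 was called in 2 of 8 fits, and its adjusted p reached 0.217 without control shRNA empty virus library B.

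**Figure D5:**
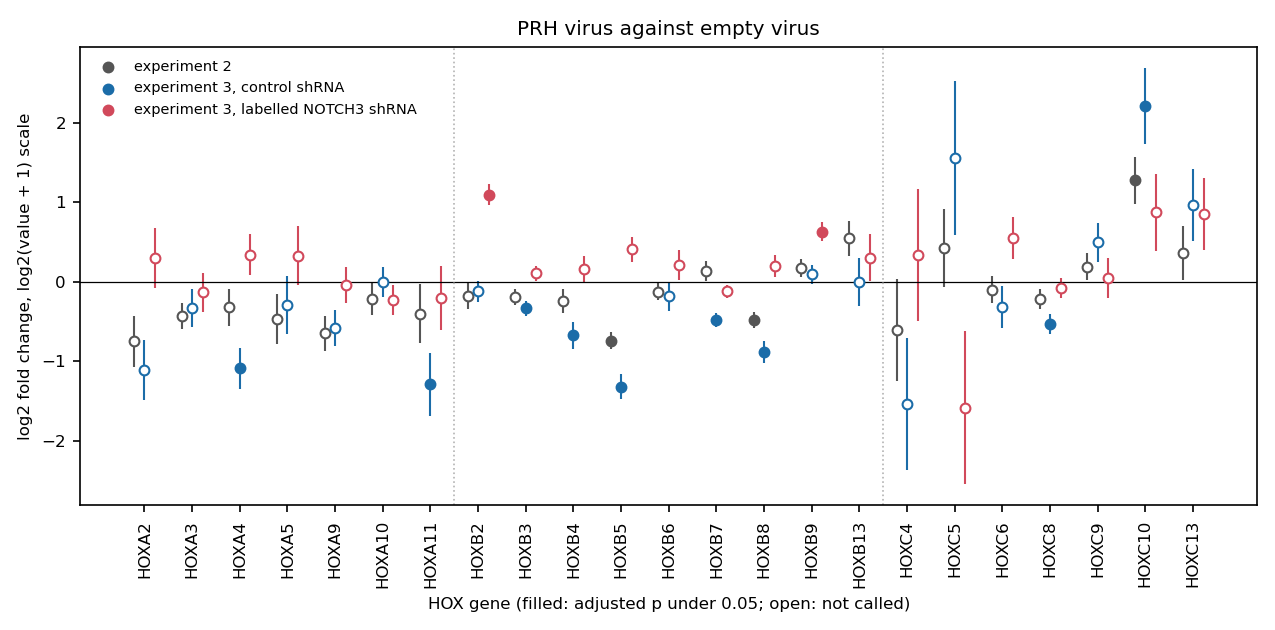
Log2 fold change of HOX genes between PRH virus and empty virus, on the log2(normalised count + 1) scale, in experiment 2 (grey), in control shRNA cells (blue) and in cells labelled NOTCH3 shRNA (red) of experiment 3, with bars of 1 standard error. HOXB5 and HOXB8 lie below 0 in grey and blue and not in red, and HOXC10 lies above 0 in all 3.

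In the libraries labelled NOTCH3 shRNA the PRH virus gave 2 calls among 32 members, both higher, beside 2.21% of all genes (1.90% higher, 0.309% lower). HOXB2 read 4612 and 3959 with the PRH virus against 1826 and 2186 (log2 fold change 1.10, SE 0.13, adjusted p = 0.011 by limma), and HOXB9 19556 and 21679 against 11798 and 14931 (0.63, SE 0.12, adjusted p = 0.0309). The groups did not overlap for either gene. Neither call remained when these 4 libraries were fitted alone, an alternative chosen after seeing the data in which 3 of all genes were called, or without NOTCH3 shRNA PRH virus library A (adjusted p = 0.0708 and 0.101) or library B (0.118 and 0.308), in each of which fits 1 of all genes was called. HOXB9 also lost its call without either control shRNA PRH virus library, either control shRNA empty virus library or NOTCH3 shRNA empty virus library A (adjusted p 0.0602 to 0.11). None of the 6 HOXA genes with the largest shRNA difference was called, with log2 fold changes of -0.23 for HOXA10 and -0.02 for HOXA13.

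The difference between the 2 PRH virus effects was tested as an interaction in the same model. It passed for 4 of 32 members, HOXB2, HOXB5, HOXB8 and HOXA4, beside 8.39% of all genes (3.48% higher, 4.91% lower). For each, the change with the PRH virus was more positive in the libraries labelled NOTCH3 shRNA than in the control shRNA libraries. HHEX itself was lower with the PRH virus in the libraries labelled NOTCH3 shRNA, at 71910.5 and 46576 against 228980 and 330421. It was lower there with the empty virus too, at 209 and 187 against 613 and 715. The interaction of HHEX did not pass (-0.51, SE 0.30, adjusted p = 0.366 by limma). The part of these HHEX differences in the interaction of the HOX genes was not tested. HOXB5 went from 13006 and 11607 to 5773 and 4200 in control shRNA cells and from 4221 and 4295 to 5074 and 6322 in those labelled NOTCH3 shRNA, which is an interaction of 1.73 on the log2 scale (SE 0.22, adjusted p = 0.00218 by limma). HOXA4 went from 872 and 687 to 441 and 300 in control shRNA cells and from 366 and 299 to 412 and 428 in the others (1.43, SE 0.36, adjusted p = 0.0428). With the PRH virus, the levels of HOXB5 and HOXA4 overlapped between the 2 shRNA groups. HOXB2 and HOXB5 passed in all 8 fits with a library left out. HOXB8 passed in 5 of them, not without NOTCH3 shRNA PRH virus library A (adjusted p = 0.05), library B (0.069) or control shRNA empty virus library A (0.0512). HOXA4 passed in 1, with adjusted p up to 0.156 without control shRNA empty virus library A. The 3 PRH virus comparisons of HOXC10 were 1.28 in experiment 2, 2.21 in control shRNA cells and 0.88 (SE 0.48, not called) in cells labelled NOTCH3 shRNA, and its interaction did not pass (-1.34, SE 0.68, adjusted p = 0.289).

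Within experiment 3, Pearson's r of log2 values across members ran from 0.955 to 0.991 between libraries of 1 group and from 0.656 to 0.985 between libraries of different groups (n = 32 genes, which share their clusters). The lowest value was between NOTCH3 shRNA empty virus library A and control shRNA PRH virus library B. In experiment 2 the values between groups, 0.966 to 0.988, lay close to those within, 0.989 and 0.993.

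Exons of 8 of the 39 members share bases with those of another tabulated gene. These are HOXB3 and HOXB4, and HOXC4, HOXC5 and HOXC6, on the same strand, and HOXA6 and HOXA7 with HOXA-AS3 and HOXB3 and HOXB6 with HOXB-AS3 on the opposite strand. How such reads were counted, and whether by strand, is not given in the sources used here, so the values of these members and their partners are uncertain in part.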

How the data were processed

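Polyadenylated RNA of CCLP1 was sequenced in 16 libraries. Per the submitters' processing notes the authors used Trim Galore, TopHat, featureCounts and DESeq2 on hg19. Their versions and strand settings were not stated. What the authors deposited is a signal per gene and library, which came out as reads over a library's size factor (0.691 to 1.37), every value being a whole multiple of 1 step within 1e-06. Of 23368 lines per table, 28 with a date as symbol were left out. Columns of experiments 2 and 3 carry no replicate number, so A and B are names only. Some items are not reported here. In experiment 2 a header names GFP for the control virus, which the labels call empty, as is done here.

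Tests used limma 3.58.1 (R 4.3.3) with an intensity trend on log2(value + 1), with genes at 10 or more in at least 2 libraries, Benjamini-Hochberg adjustment over all genes and a threshold of 0.05. Experiment 3 was 1 model of 8 libraries. The fit was also run on simulated counts in which few genes changed and libraries varied independently. Calls were far more common in experiment 3, so that run does not show how the fit behaves on these data. The p-values measure the spread between libraries of 1 cell line, and with 2 per group an exact rank test cannot reach the threshold. In experiment 3 the libraries of a group were separate infections, and separately made shRNA lines are not known from the labels. The p-values of the shRNA comparisons therefore measure the spread between infections, not between shRNA lines. The floor of 3 counts per library covers counting error only, and reads that carry no molecular identifiers may be copies of 1 molecule. Alternatives were a pseudocount of 0.5 or 5, no filter, equal totals, no trend, edgeR 4.0.16 and DESeq2 1.42.0 on recovered reads (experiments 2 and 3), a replicate block and leaving out each library.

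The members and gene lists were chosen with earlier results of these data known. Chosen for description with library values were called members with a group mean of at least 50, up to 15 per direction. In experiment 1 these were members at 50 or more in a library whose groups do not overlap or that differ at least 4-fold between clones of a group. Some of the members so chosen are given by fold change, name or count only. From other lists up to 4 called genes per direction are named, and HHEX and NOTCH3 check the labels. RARB, KRT19, EPCAM, HOTTIP and CDX2 in experiment 1 and KRT7 and CFTR were added after their values were seen. The lists are TALE cofactors, Polycomb, Trithorax and demethylases, retinoic acid, ParaHox and CDX, HOX noncoding RNAs, flanking genes and markers of 7 cell types.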

Additional observations from a re-analysis of the deposited data

Results flagged for a closer look

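The effect of the PRH virus differed between the libraries labelled NOTCH3 shRNA and the control shRNA libraries for 4 HOX genes, by the interaction term of limma. The difference of the log2 fold changes, NOTCH3 minus control, was 1.21 for HOXB2, 1.73 for HOXB5, 1.08 for HOXB8 and 1.43 for HOXA4. HOXB2 was higher with the PRH virus in the libraries labelled NOTCH3 shRNA (log2 fold change 1.10) and was not called in control shRNA cells (-0.12). HOXB5, HOXB8 and HOXA4 were lower with the PRH virus in control shRNA cells (-1.32, -0.88 and -1.09) and were not called in the others (0.41, 0.20 and 0.34). The adjusted p was 0.0047 for HOXB2, 0.00218 for HOXB5, 0.01 for HOXB8 and 0.0428 for HOXA4 over 15836 genes. With the PRH virus, HHEX was lower in the libraries labelled NOTCH3 shRNA than in the control shRNA libraries (log2 fold change -2.25). With the empty virus it was lower there too (-1.74), and the interaction of HHEX did not pass (-0.51). The part of HHEX in the differences of the 4 HOX genes was not tested.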

How the results depend on the processing

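With a library left out, the members called ranged from 18 to 23 for NOTCH3 against control shRNA with the empty virus and 18 to 21 with the PRH virus. The range was 0 to 3 for PRH shRNA, 1 to 3 for the PRH virus in experiment 2, 4 to 10 in control shRNA cells, 0 to 2 in those labelled NOTCH3 shRNA and 2 to 5 for the interaction. Where only 1 library of a group was left, it was assumed to vary like the other groups. Calls over all genes changed in these fits as well, and fell in most fits of both NOTCH3 shRNA comparisons. Without the intensity trend the PRH virus called 0 members in experiment 2 and 0 in the libraries labelled NOTCH3 shRNA, and the interaction 1, while the calls over all genes went from 2073 to 758, from 350 to 82 and from 1329 to 351. Fitting the libraries labelled NOTCH3 shRNA alone, an alternative chosen after seeing the data, also called 0 members and 3 of all genes, and DESeq2 called 8 members and 2212 of all genes for the interaction. Results whose sign turned were not called: HOXB6 in experiment 1 with equal totals (0.0265 on the log2 scale), and HOXB7 there with 1 clone left out (-1.26 to 0.892, positive without PRH shRNA clone 2 or control shRNA clone 1). The cause was not tested. Of 1132 values for 81 results on single genes, 998 kept their direction and their side of the threshold and 3 turned their sign. Counted as on at 1 RPM, members numbered 20 to 27 per library, at 50 normalised counts 19 to 27 and at 1 normalised count 27 to 36. In experiment 1 clone numbers are shared by the groups. The differences between clone 1 and clone 2 correlated across 14511 genes (r = 0.582), but with only 2 pairs this does not show that the numbers pair the clones. The fit with the clone number as a replicate block called 10 genes in place of 0, and 0 HOX members. No paired analysis was possible in experiments 2 and 3 because their columns carry no numbers. Count tests (edgeR, DESeq2) were not run on experiment 1, where a check of the units could not tell the step of PRH shRNA clone 2 (0.990) from rounding. The values of that library were nevertheless whole multiples of its step. Members at a few reads, such as HOXD genes, limit the precision of folds.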
